A study of Mus musculus with 8 samples.

Results

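The 10 genes followed here are induced by type I interferon (Ifit1, Ifit2, Ifit3, Isg15, Usp18, Mx1, Uba7, Ifi204, Ifi202b and Ifi35) and were measured in the livers of 8 mice. The list was drawn up with earlier results of these same arrays known, and the probe set that stands for each gene was chosen by its mean intensity over the 8 arrays, so the spread of these genes between livers is given as a description and without a test. All 10 listed genes had a probe set that names 1 gene, among 8251 such genes on the array. The animals were female Ames dwarf mice, homozygous for the df allele, fed 30% less than dwarf mice of the same sex with free access to food, and killed at 24 to 26 months of age. Ames dwarf mice lack pituitary growth hormone, prolactin and thyroid stimulating hormone throughout the body, and every mouse carried both the mutation and the diet. They form 1 group with 1 Affymetrix U74Av2 array per mouse, so all comparisons are between individual mice, and technical error between arrays of the same liver was not measured.

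Type I interferons, the alpha and beta forms, are released by cells that sense viral or misplaced nucleic acid. They bind a receptor made of IFNAR1 and IFNAR2, whose kinases JAK1 and TYK2 activate a transcription factor complex, with IRF9 as its DNA-binding subunit, that binds the interferon-stimulated response element in the promoters of target genes. The targets include proteins that bind foreign RNA (IFIT family), a ubiquitin-like modifier and its enzymes (ISG15, UBA7, USP18), GTPases that block viral nucleocapsids (MX1) and DNA-binding proteins of the interferon-inducible HIN family (IFI204, IFI202B). Interferon gamma, the type II form, has its own receptor and acts mainly through another promoter element, and many genes answer to either type.

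The promoters of 3 genes are shown because they carry the core of the interferon-stimulated response element, GAAANNGAAA or its reverse complement TTTCNNTTTC. Pearson's r across the livers between any pair of these 3 genes ran from 0.938 to 0.945. Between genes with a promoter sequence but no core (Ifit2, Uba7, Ifi202b and Ifi35) it ran from 0.765 to 0.974. The ranges overlap, and the lowest value belongs to Ifit2, under the floor in 5 mice, with Ifi35. A part of the core in the shared profile was not tested. Promoter sequences came from RefSeq (GRCm38.p6) and cover 250 bases before and 50 after an annotated start, and 7 of the 10 genes had an entry (Usp18, Mx1 and Ifi204 had none). Each line gives the 170 bases before the start, 5′ to 3′ on the gene's strand, with matches to the core in capitals.
Ifit1, chr19:34640719-34640888, plus strand: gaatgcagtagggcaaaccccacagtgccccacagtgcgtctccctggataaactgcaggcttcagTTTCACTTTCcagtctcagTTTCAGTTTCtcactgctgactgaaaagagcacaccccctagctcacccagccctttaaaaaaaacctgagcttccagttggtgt
Ifit3, chr19:34583359-34583528, plus strand: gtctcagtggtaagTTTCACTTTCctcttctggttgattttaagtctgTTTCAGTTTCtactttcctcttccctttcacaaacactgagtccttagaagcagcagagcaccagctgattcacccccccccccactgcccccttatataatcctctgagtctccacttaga
Isg15, chr4:156200819-156200988, minus strand: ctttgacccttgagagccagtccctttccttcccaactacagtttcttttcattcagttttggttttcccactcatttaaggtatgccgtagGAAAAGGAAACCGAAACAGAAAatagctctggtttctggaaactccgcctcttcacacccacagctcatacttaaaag

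Ifit1 and Ifit3 each held 2 separate copies, and the pair of words was the same in both, TTTCACTTTC followed by TTTCAGTTTC. In Ifit1 these began 104 and 85 bases before the start, and in Ifit3 156 and 122 bases before it. In Isg15, 3 overlapping matches ran together, the first beginning 78 bases before the start. Matches to the core on either strand were thus found in 3 of the 7 genes, or 3 of their 8 windows. The share was 3.44% of 32851 promoter windows of the same length and 2.81% of 5092 windows of tested genes. The palindromic element TTCNNNGAA, known from genes that answer to interferon gamma, was found in the windows of the other genes Ifi202b (TTCTCAGAA, 148 bases before the start), Ifit2 (TTCCTGGAA, 241 bases before 1 of its 2 annotated starts) and Ifi35 (TTCACAGAA, just after the start), against 8.30% of all windows. Uba7 held neither set of letters. A match describes the letters in the window and does not show that a factor binds there.

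Across the livers the 10 genes followed nearly the same order of mice. In whole liver RNA, fewer cells of a type and less RNA per cell cannot be told apart. Mouse 6 had the highest intensity for 10 of 10 genes and mouse 8 the second highest for 10 of 10. The matching shares over all genes of the array are not given, so these counts are a description only. Mice 4, 5 and 7 lay lowest, and in each of the 28 pairs of mice the genes were counted for which mouse was brighter, after intensities below 37.2 (the 25th percentile, used as the floor) had been set to that value. In 21 of the 28 pairs no gene went against the others, and in 16 pairs all 10 differed in the same direction. The pairs that hold mouse 6 or 8 add nothing to the ranks of these 2 mice given above. Among the other mice all 10 genes differed in the same direction only for mouse 3 against mice 4, 5 and 7. The order within mice 4, 5 and 7 was mixed, since mouse 5 exceeded mouse 4 for 5 genes and fell short of it for 3. A score for each mouse, which averages the log2 intensities of the 10 genes after each gene was centred on its own mean, was -0.39, -0.0027, 0.21, -0.98, -0.82, 1.85, -0.87 and 1.002 in mice 1 to 8.

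**Figure D1:**
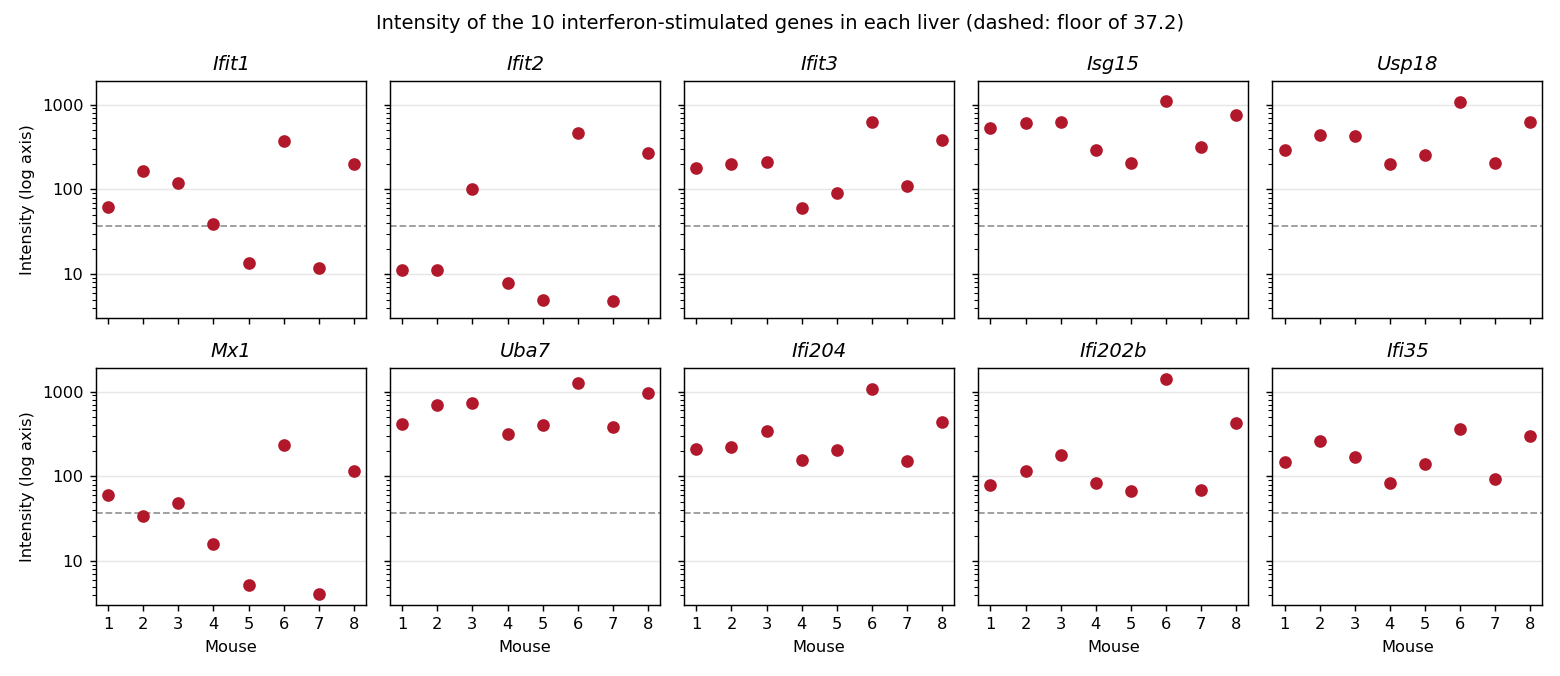
Intensity (log axis) of the 10 genes in the livers of mice 1 to 8, 1 point per mouse and 1 panel per gene, with the floor of 37.2 as a dashed line. Mouse 6 is highest and mouse 8 second in every panel, and Ifit1, Ifit2 and Mx1 fall below the floor in 2, 5 and 4 mice.

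The 3 IFIT genes, which lie on chromosome 19 and encode proteins with tetratricopeptide repeats that bind viral RNA and each other, differed in how far down they went. Ifit3 alone of them passed the brightness filter (a mean of at least 165.2, the median of all values) and it had intensities of 178.9, 197.8, 211.3, 60.6, 89.7, 626.7, 109.5 and 384.0 in mice 1 to 8, a 10.3-fold range. No mouse fell under the floor for this gene. Ifit1, which recognizes RNA that lacks the host's cap methylation, had 376.5 (mouse 6), 198.6 (mouse 8), 166.3 (mouse 2) and 117.6 (mouse 3), against 62.7 (mouse 1) and 39.2 (mouse 4). It was under the floor in mice 5 and 7, so mouse 6 was at least 10.1-fold above them. Ifit2 was above the floor in 3 mice only, with 468.2 (mouse 6), 267.7 (mouse 8) and 101.9 (mouse 3), and at most 11.2 in the other 5, which puts mouse 6 at least 12.6-fold above them. Mouse 2 shows the contrast within the family, since it came next after mice 6 and 8 for Ifit1 and was under the floor for Ifit2 at 11.1. Ifit1 and Ifit2 averaged 123.3 ± 123.6 and 109.7 ± 171.3 (SD, n = 8) and were too dim for the filter, so their values near the floor carry no order.

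The genes of the ISG15 system were above the floor in every mouse. Isg15, the ubiquitin-like modifier itself, averaged 556.1 ± 295.7 (SD, n = 8), with a lowest value of 206.8 (mouse 5), a median of 572.8 and a highest of 1113.5 (mouse 6), a 5.38-fold range. Its values in mice 1, 2 and 3 lay close together, at 533.4, 612.1 and 620.6, and its next highest was 759.4 (mouse 8). Uba7, the E1 enzyme that activates ISG15, averaged 646.0 ± 330.9 and ranged 3.95-fold, from 316.3 (mouse 4) to 1248.8 (mouse 6) with a median of 553.9. Usp18, the protease that removes ISG15 and also blocks signalling at IFNAR2, averaged 438.3 ± 295.1 and ranged 5.37-fold, from 201.0 (mouse 4) to 1080.0 (mouse 6) with a median of 356.0. Usp18 and Uba7 had the closest profiles of any 2 of the 10 genes (Pearson's r = 0.979 over 8 mice, given as a description). Ube2l6, the conjugating enzyme for ISG15, was not on the list and followed a partly different order, with 926.8 (mouse 8), 788.1 (mouse 6) and 286.9 (mouse 5).

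Mx1, a dynamin-like GTPase that many laboratory mouse strains carry in a defective form, was under the floor in 4 mice. It had 235.4 (mouse 6), 115.9 (mouse 8), 61.0 (mouse 1) and 48.0 (mouse 3), and mouse 6 was at least 6.33-fold above the other 4 mice. Its relative Mx2, not on the list, ranged 2.59-fold, from 104.9 (mouse 5) to 272.2 (mouse 6).

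Among the HIN family genes, Ifi202b ranged 20.9-fold, and 6.36-fold without mouse 6. It passed the brightness filter only through mouse 6. It read 1414.7 (mouse 6), 430.4 (mouse 8) and 179.0 (mouse 3), and lay between 67.7 and 115.6 in the other 5 mice, with a median of 99.4. Ifi204, a DNA-binding protein related to human IFI16, read 1068.5 (mouse 6), 439.8 (mouse 8) and 343.7 (mouse 3), and lay between 153.9 and 224.8 in the other 5, a 6.94-fold range. The identity of Ifi204 is less certain than that of the other genes, because its probe set shares probes with related transcripts, and averaging all its probe sets left a range of 2.91-fold, under 4-fold. A further probe set that names Ifi204 with 3 relatives had 1200.3 (mouse 6), 340.5 (mouse 8) and at most 95.9 elsewhere, and one that names Ifi202b with a relative had 140.7 (mouse 6) and 63.8 (mouse 8). Both of these were again highest in mouse 6, and so were the remaining Ifi204 probe sets, which were under the floor in 5 and 6 mice.

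Ifi35, a leucine zipper protein that binds NMI in the cytosol, had the narrowest range after Uba7. Its lowest value was 82.8 (mouse 4), its median 157.3 and its highest 363.6 (mouse 6), a 4.39-fold range, with 295.5 (mouse 8) and 259.0 (mouse 2). Mouse 2 lay nearer to mouse 8 for Ifi35 than mouse 3 did (167.9), the reverse of the order for Ifi204 and Ifi202b.

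Set beside the whole table, 9 of the 10 genes ranged at least 4-fold between the highest and the lowest mouse, as did 6 of the 7 that passed the brightness filter (Ifi202b only through mouse 6), against 266 of 4869 tested genes (5.46%). Ifi35 (4.39-fold) lay just inside this limit and Uba7 (3.95-fold) just outside it. The median range was 5.38-fold over the 7 tested members and 1.61-fold over all tested genes. Because the list was made with these values known, nothing is read from the difference. Without mouse 6 the ranges of Ifit1, Ifit2, Ifit3 and Ifi202b alone stayed at 4-fold or more (4 of 10, against 4.05% of all tested genes), and without mice 6 and 8, a choice made after seeing the data, that of Ifit1 alone did (1 of 10, against 2.70% of all tested genes). Over the whole table limma's F test of the variance between mice called 0 of 6265 probe sets (0%, lowest adjusted p = 0.265). At an unadjusted p under 0.05 there were 400 (6.4%). None of the 7 tested members thus passed it, and nothing is read from this. The reference variance of the test, and how far variances scatter around it, were estimated from these same probe sets. A p that misses the threshold does not show that the livers were alike.

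**Figure D2:**
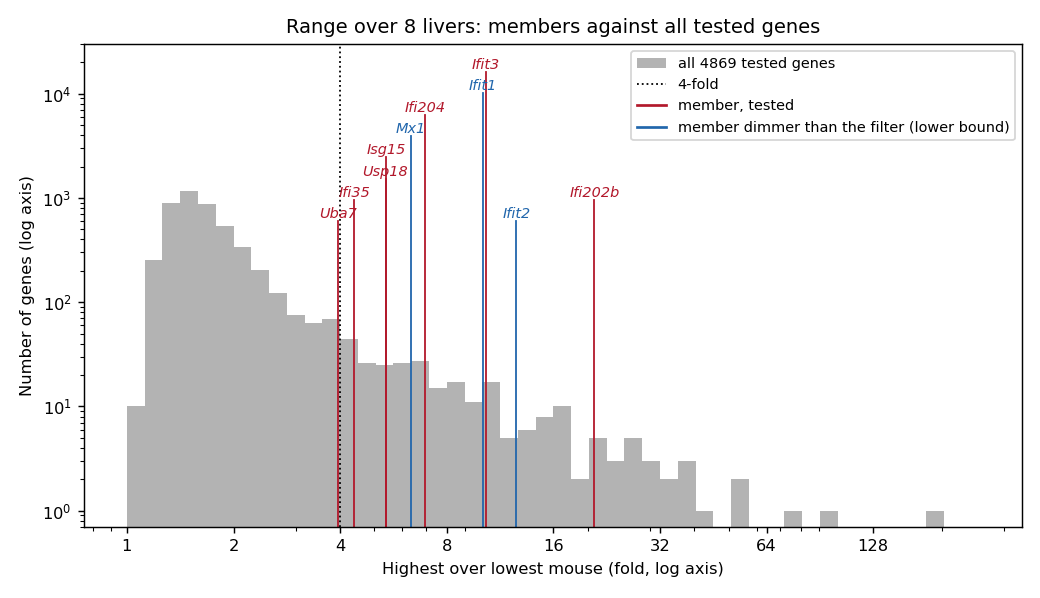
Number of tested genes (log axis) by the ratio of the highest to the lowest mouse (fold, log axis), with the 7 tested members as red lines and the 3 dimmer ones, whose ratios are lower bounds, as blue lines. Of all 4869 tested genes 266 lie at or beyond 4-fold (dotted), and the members run from 3.95-fold for Uba7 to 20.9-fold for Ifi202b.

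Between any 2 of the 10 genes, Pearson's r of log2 intensity over the 8 mice ran from 0.755 (Mx1 with Ifi35) to 0.979, with a mean of 0.897. The 5 lowest pairs that fell under 0.8 all held Mx1 or Ifit2, the genes most often under the floor. Without mice 6 and 8 the mean was 0.671 over 6 mice. The points share arrays and their scaling, and these correlations carry no p. Array brightness differed little, since the median intensity of all probe sets was 145.6 in mouse 5 and 174.0 in mouse 6, with mouse 8 slightly above mouse 6, and with every array scaled to a common median 8 of the 10 genes ranged at least 4-fold, against 5.09% of all tested genes.

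Upstream of these genes, most of the interferons themselves were too dim to test and the receptor genes ranged little. Of 18 listed type I interferon genes 9 had a probe set and 2 passed the filter. These were Ifnab and Ifna5, both on probe sets that share probes within the interferon alpha family, and they ranged 1.79-fold and 1.34-fold with their highest values in mice 1 and 4. Ifnb1, named after its values were seen, was under the floor for 5 mice, mice 6 and 8 among them, and highest in mouse 3, at 71.7. The receptor and kinase genes ranged 1.29-fold (Jak1), 1.502-fold (Ifnar1), 1.90-fold (Tyk2) and 2.17-fold (Ifnar2). Thus 0 of the 4 reached 4-fold (5.46% of all tested genes did). Jak1 and Ifnar2 were highest in mouse 6 (1347.0 and 689.9) and Ifnar1 in mouse 8 (330.5), while Tyk2 was lowest in mouse 6 (201.7). Ifng, the type II ligand, was above the floor for mouse 6 alone, at 53.6, while its receptor genes Ifngr1 and Ifngr2 were highest in mouse 6 (589.0 and 301.7) and ranged 3.14-fold and 4.40-fold.

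Among the transcription factors of the pathway, Irf9, Irf7, Irf1 and Irf8 were highest in mouse 6 and Irf3 was not. Irf9, the DNA-binding subunit of the complex named above, had 485.9, 637.4, 673.6, 404.4, 464.0, 956.4, 434.8 and 742.7 in mice 1 to 8, the same order of mice as the score, over a 2.36-fold range. Irf7, which drives interferon alpha genes and is itself a target, ranged 7.37-fold, from 220.8 (mouse 7) to 1627.5 (mouse 6). Irf1, induced chiefly by interferon gamma, ranged 5.76-fold, from 590.9 (mouse 4) to 3401.5 (mouse 6), and Irf8, found mainly in myeloid and B cells, 4.19-fold. Irf3, which is present before any signal and activated by phosphorylation, ranged 1.42-fold and was lowest in mouse 8, at 341.4. Of 5 tested interferon regulatory factors other than Irf9, 3 reached 4-fold (5.46% of all tested genes did).

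Of 4 tested negative regulators 2 reached 4-fold (5.46% of all tested genes did). Socs1, which inhibits JAK kinases, ranged 6.66-fold and was lowest in mouse 7, with 1179.3 (mouse 6) and 565.8 (mouse 8). The phosphatase gene Ptpn1 ranged 6.48-fold with another order, lowest in mouse 5 (111.2) and highest in mouse 8 (720.6). Among sensors and adaptors 0 of 3 tested genes reached 4-fold, against the same 5.46% of all tested genes. Ifih1, the RNA sensor MDA5, was highest in mouse 1 (730.2), and Tbk1 and Myd88 were highest in mouse 6 over 1.80-fold and 2.26-fold ranges.

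Of 15 tested genes among other interferon effectors 3 reached 4-fold (5.46% of all tested genes did). The median range was 2.59-fold (5.38-fold for the 7 tested members), and 10 of the 15 were highest in mouse 6. Among these 10, Mx2 passed the brightness filter only through mouse 6. The share of all tested genes that were highest in mouse 6 is not given. Ifitm3, a membrane protein that blocks viral entry, averaged 10026 ± 2288 (SD, n = 8) and ranged 1.76-fold, with near equal values in mice 2, 6 and 8 (12577, 12308 and 12349). Ly6e, a lipid-anchored surface protein measured on a probe set with shared probes, ranged 5.02-fold, from 2808 (mouse 7) to 14085 (mouse 6) and 13905 (mouse 8). Lgals9 (galectin-9) ranged 1.29-fold and was highest in mouse 5, and Ifi27 3.14-fold with its highest value, 2917, in mouse 6. Rsad2 (viperin), named after its values were seen and too dim for the filter, read 433.3 (mouse 6), 211.0 (mouse 8) and 47.0 (mouse 5).

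Of 11 tested genes induced by interferon gamma, 10 reached 4-fold (5.46% of all tested genes did), and the median range was 22.2-fold. They were immunity-related GTPases, guanylate-binding proteins, chemokines and Ciita, which alone missed 4-fold at 3.68-fold. The score of these 11 genes was -0.14, 0.09, 0.89, -1.59, -1.59, 2.25, -1.73 and 1.82 in mice 1 to 8, and it followed the score of the 10 genes (Pearson's r = 0.963, Spearman's rho = 0.976, and r = 0.976 without mice 6 and 8, as a description). Iigp1, an immunity-related GTPase, had close values in its highest mice, with 15220 (mouse 6), 14442 (mouse 8), 11521 (mouse 3) and 10908 (mouse 2), while Gbp3 read 6327, 4850, 2081 and 872 in the same mice.

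**Figure D3:**
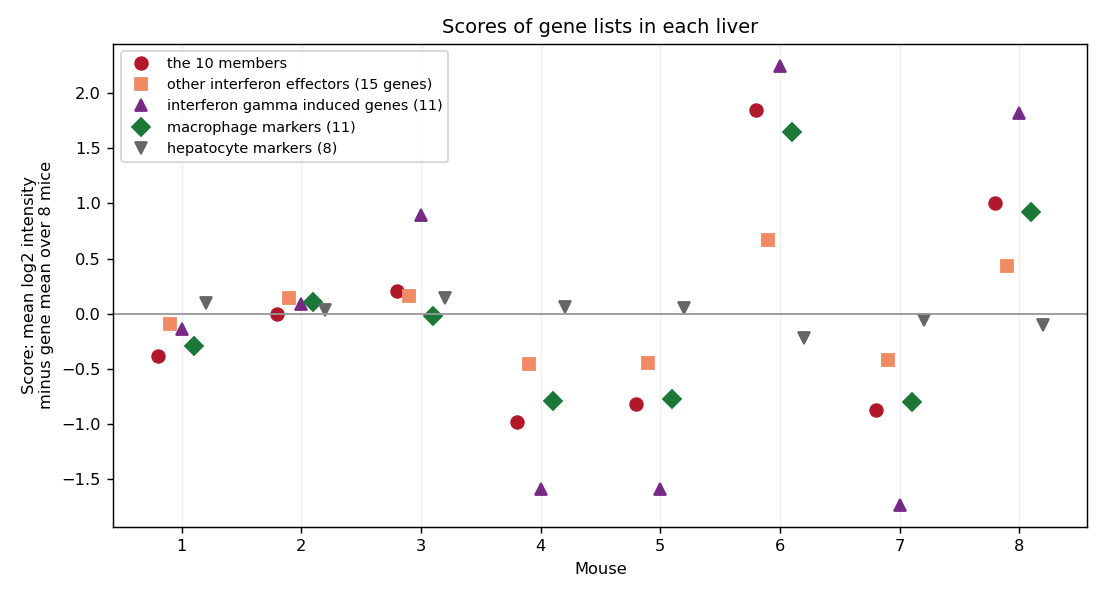
Scores in mice 1 to 8 (average log2 intensity, each gene centred on its own mean) of the 10 members, of 15 other interferon effectors, of 11 genes induced by interferon gamma, of 11 macrophage markers and of 8 hepatocyte markers, 1 point per list and mouse. The members run from -0.98 (mouse 4) to 1.85 (mouse 6), the interferon gamma induced genes from -1.73 to 2.25, and the hepatocyte markers stay between -0.22 and 0.14.

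**Figure D4:**
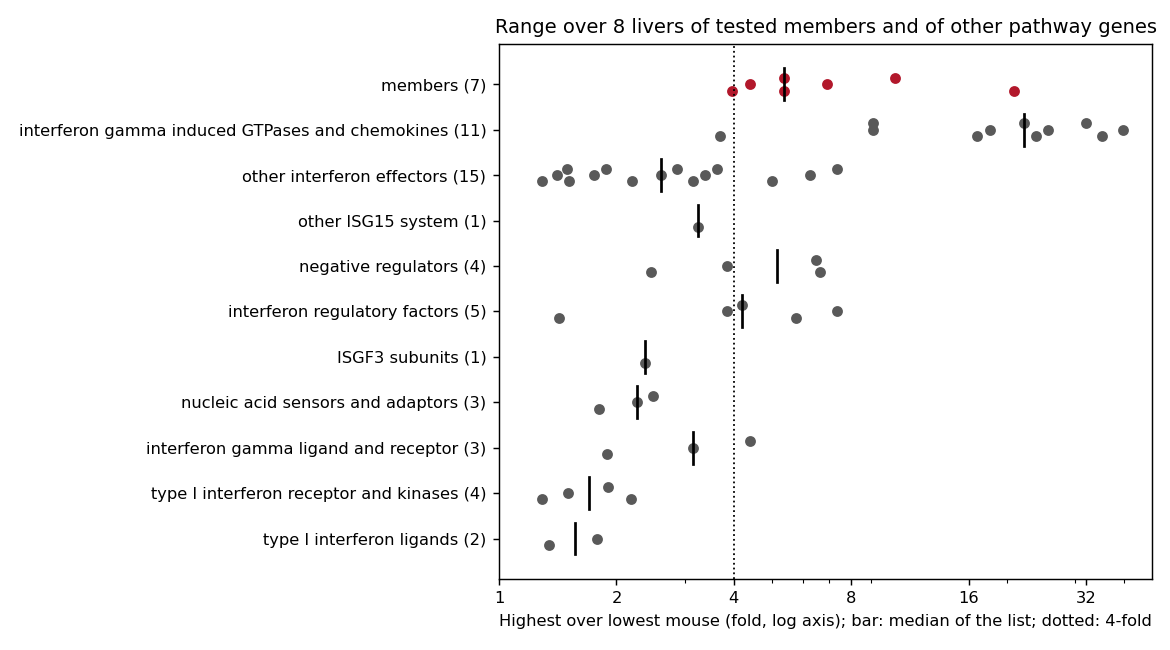
Ratio of the highest to the lowest mouse (fold, log axis) for the 7 tested members (red) and for tested genes of 10 other lists of the interferon pathways (grey), 1 point per gene, with the median of each list as a bar and 4-fold as a dotted line. Medians run from 1.57-fold for the type I interferon ligands to 22.2-fold for the interferon gamma induced genes, with the members at 5.38-fold.

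Macrophage markers followed the order of the 10 genes, and markers of some other cells did not. Of 11 tested macrophage markers 10 reached 4-fold (5.46% of all tested genes did). Of these 11 also 10 were highest in mouse 6, a count given without a share of all tested genes. Adgre1 is in both counts and passed the brightness filter only through mouse 6. The summed intensity of the 11 markers was 8131, 11824, 10607, 5762, 6049, 33541, 6241 and 21245 in mice 1 to 8. Mpeg1, the brightest, read 6915 (mouse 6) and 5726 (mouse 8), against 683.1 (mouse 7). Clec4f, a lectin of resident Kupffer cells singled out after its values were seen, did not share the order, with 1362 (mouse 2), 1221 (mouse 6), 747.0 (mouse 8) and 524.3 (mouse 1). The macrophage score correlated with that of the 10 genes at r = 0.994 (rho = 0.952, and r = 0.966 without mice 6 and 8), and its part in their range was not tested.

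Of 13 T and NK cell markers 11 had a probe set and 3 were bright enough to test, with a summed intensity from 214.5 (mouse 4) to 2954 (mouse 6). Ccl5, a chemokine of T and NK cells, made up 2069 of the sum in mouse 6 and fell under the floor for 4 mice. The other tested genes were highest elsewhere, Ltb in mouse 8 (824.4) and Cd4 in mouse 3 (344.8). Cd3d, Cd8a, Cd8b1 and Prf1 were under the floor in 8 of 8 mice. Cd3e was above the floor in every mouse and highest in mouse 1 (112.9), while Klrd1 and Gzmb were under it in 1 mouse each and highest in mouse 6 (150.4 and 300.3). Of the plasmacytoid dendritic cell markers, cells known for making type I interferon, 3 of 6 were tested with a summed intensity from 659.3 (mouse 5) to 1680 (mouse 6), of which Irf8, also a gene of other myeloid cells, made up 1059.9. Ly6d ranged 3.60-fold, was highest in mouse 6 (363.9) and passed the filter only through that mouse. Tcf4 was highest in mouse 4 and Ccr9 was under the floor in 6 mice, and without mice 6 and 8 the score of the plasmacytoid dendritic cell markers had r = -0.26 with that of the 10 genes. Of 7 neutrophil markers S100a8 alone passed the filter, through mouse 6, and read 556.3 (mouse 6), 145.9 (mouse 8) and 78.8 (mouse 2). The dim S100a9 and Ngp were also highest in mouse 6, whereas Mpo, Elane, Camp and Ly6g were highest in mice 7, 3, 2 and 8. The 3 tested stellate cell genes summed to 608.5 (mouse 5) and 1749 (mouse 6), of which the collagen genes Col1a1 and Col3a1 made up 969.3 and 590.8. Col1a1 ranged 3.08-fold, Col3a1 4.23-fold and Des 1.24-fold. The dim Acta2 and Rgs5 were highest in mouse 2 (229.4 and 121.4). B and plasma cell markers, sinusoidal endothelial markers and hepatocyte markers were not highest in mouse 6 by their sums, which peaked in mice 4, 4 and 5. Igha ranged 2.43-fold and was highest in mouse 4, and Cdh5 ranged 2.21-fold and was highest in mouse 6. Hepatocyte markers, the check of the labelled tissue, were bright in every mouse, with Alb at 29253 ± 4809 (SD, n = 8) and a summed intensity from 110803 (mouse 6) to 161946 (mouse 5). The part of these cells in the range of the 10 genes was not tested.

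The genes outside the list with the profile most like the score of the 10, among 4862 compared over the 8 mice, were Ctss (r = 0.993), Pld4, Rasa4, Atf3, Ms4a6c, Fgl2, Tyrobp and Tmsb4x (r = 0.983). Rasa4 and Ms4a6c passed the brightness filter only through mouse 6, which also has the highest score. Ctss, the lysosomal protease cathepsin S, followed the score's order of mice exactly (rho = 1) and read 8372 (mouse 6), 5132 (mouse 8) and 742.2 (mouse 4). Tyrobp, a signalling adaptor of myeloid and NK cells, read 1428 (mouse 6), 884.2 (mouse 8) and 158.1 (mouse 4). Ms4a6c, a membrane protein gene on a probe set with shared probes, was under the floor in mouse 5 and ranged at least 23.2-fold. The probe set of Atf3 also shares probes. Without mice 6 and 8 these 8 genes had r between 0.914 and 0.984. The other 6 mice were among those used to pick the genes, so this is no separate check. At the opposite end stood Hsd17b4 (r = -0.987), Rmnd5a, Retsat and Tfb2m (r = -0.975), each lowest in mouse 6. Retsat, the retinol saturase, read 1001 (mouse 6) and 1396 (mouse 8), against 4253 (mouse 7), and Hsd17b4, an enzyme of peroxisomal fatty acid oxidation, 2829 (mouse 6) against 6486 (mouse 5). Of all genes compared, 167 (3.43%) had r above 0.9.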

How the data were processed

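Liver RNA of 8 mice was measured on U74Av2 arrays read on a Hewlett-Packard GeneArray scanner, per the labels. The deposited intensity table, on a linear scale, was used as the authors made it. The summarizing software is, in these sources, not given. The 2% trimmed mean differed by 0.0140% between arrays, so the values count as already scaled. All 8 columns matched a sample. Control probe sets (66) were left out, values were raised to 37.2 and log2 transformed, and 6265 probe sets averaging 165.2 or more, for 4869 genes, were tested. The number of arrays limits the precision. Names came from the platform annotation (1 symbol for 10855 probe sets, several for 396, none for 1237), updated by Entrez identifier (10839 matched, 0 changed), and the brightest probe set stood for a gene. Variances were tested across all probe sets with limma 3.58.1 in R 4.3.3 (robust trended squeezeVar, F test, Benjamini-Hochberg at 0.05), which was checked on simulated data.

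The members and lists were chosen with earlier results of these data known. Named were all members, up to 4 of the brightest genes of each pathway list, the brightest marker of each cell list, and the 8 genes with the highest and 4 with the lowest r with the score. Others (Mx2, Rsad2, Ifnb1, Ifng, Clec4f, Adgre1, Ccr9, Tcf4, Ly6d, the T and NK cell genes besides Ccl5, the neutrophil genes besides S100a8 and the stellate cell genes besides Col1a1) were picked after their values were seen. Alternatives covered scaling, floor, filter, probe sets and mice left out. Labels do not state separate litters or cages, so the spread is that between these samples.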

Additional observations from a re-analysis of the deposited data

How the results depend on the processing

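No paired analysis was possible because the series has 1 group. With the floor at the median, 137 of 4869 tested genes (2.81%) and 4 of the 10 members reached 4-fold. With no brightness filter 584 of 8251 genes (7.08%) and 9 members did. With the filter at the 75th percentile, which tests fewer genes, 93 of 2542 (3.66%) and 1 of 2 members left did. Without each mouse in turn, 4 to 9 members and 196 to 266 genes (4.05% to 5.45%) reached 4-fold and the mean correlation between members was 0.828 to 0.940, with the lowest values without mouse 6. Without mice 6 and 8, an alternative added after seeing the data, 130 genes (2.70%) and 1 member reached 4-fold. The score then ranged over 1.19 (2.83 with all mice) and the mean correlation was 0.671. With a floor at the 10th percentile the ranges of Ifit1, Ifit2 and Mx1 were 32.2-fold, 43.4-fold and 21.8-fold, and with the floor at the median 2.28-fold, 2.83-fold and 1.42-fold, while Ifit3 and Ifi35 then ranged 3.79-fold and 2.20-fold, which ended the 4-fold calls of these 5 genes. Averaging all probe sets gave Ifi204 2.91-fold. Under common median scaling and quantile normalization 8 members reached 4-fold, with 248 (5.09%) and 255 (5.24%) of all tested genes. The F test called 0 probe sets under the 17 alternatives run (lowest adjusted p between 0.0746 and 1).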
